A study of Mus musculus with 4 samples.

Results

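The genes of the extracellular matrix and of the cell surface receptors that bind it were followed in cultured mouse cortical neurons given an activator of p53. They were every gene of the table whose symbol names a collagen chain, a laminin chain, an integrin, a tissue inhibitor of metalloproteinases (Timp), a matrix metalloproteinase (Mmp) or an Adamts protease, 105 of 18854 genes in all. The table held 39 collagens, 10 laminins, 14 integrin alpha chains, 9 genes with an integrin beta symbol, 4 Timps, 10 Mmps and 19 Adamts genes. The symbol pattern also takes 4 genes that are named after an integrin and are not chains themselves (Itgb1bp1, Itgb1bp2, Itgb3bp and Itgbl1).

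The neurons were wild-type and had been 15 days in culture when they received Nutlin-3, a small molecule that frees p53 from the ubiquitin ligase that holds it down, for 2 days. The p53 activator group and the DMSO group had 2 libraries each, made from total RNA after depletion of ribosomal RNA. The sources used here give no dose of Nutlin-3, no strain and no age of the animals, and the treatment label of the DMSO samples calls them untreated while their titles name DMSO. Whether the 2 libraries of each group stand for separate cultures is not stated, so the p-values describe the spread among these samples, which may be technical.

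The libraries held 19065197 and 17716272 reads for the p53 activator and 14584247 and 14968028 for DMSO, so that 1 read was worth 0.0525 and 0.0564 CPM (a read count scaled to the depth of its library) with the p53 activator and 0.0686 and 0.0668 CPM with DMSO. The share of reads in nuclear protein-coding genes was 83.1% and 82.6% with the p53 activator, against 73.4% and 75.8% with DMSO. Neuron markers summed to 8990 and 9092 CPM with the p53 activator and 7930 and 8833 CPM with DMSO, with all 12 of 12 listed markers in the table. Of these 9 rose and 1 fell in CPM, where 16.9% of all genes tested rose and 16.3% fell. For nuclear protein-coding genes the shares were 21.2% and 7.19%. Such counts depended on the scale, as described below. Astrocyte markers were also present, at 2803 and 2774 CPM against 2453 and 2411 CPM.

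The matrix is a meshwork that cells secrete. Laminins and type IV collagens build the sheet-like basement membrane, other collagens form or decorate fibrils, and integrins, each a pair of an alpha and a beta chain, tie the meshwork to the cytoskeleton. Mmps and Adamts proteases trim matrix and surface proteins, and Timps block them. In the brain most fibril-forming and basement membrane collagen comes from meningeal and vessel cells, while neurons and astrocytes make laminins, integrins and several of the proteases and inhibitors.

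The 250 bases before the start are shown for 4 of the 6 genes whose calls held without each of the 4 libraries in turn, the Timp2 rise and the Timp1, Itga8 and Itga11 falls, as described below. Those of the other two, Itgb1bp2 and Adamts19, are not shown. They come from RefSeq on GRCm38.p6, in which 74 of the 105 genes had a window, and read 5′ to 3′ on the strand of the gene. The Timp2 window is chr11:118355412-118355661 on the minus strand and the Timp1 window chrX:20869916-20870165 on the plus strand. The Itga8 window is chr2:12301945-12302194 on the minus strand and the Itga11 window chr9:62677605-62677854 on the plus strand. Capitals mark a GC box (GGGCGG) or a CCAAT box (CCAAT), searched on both strands.
Timp2: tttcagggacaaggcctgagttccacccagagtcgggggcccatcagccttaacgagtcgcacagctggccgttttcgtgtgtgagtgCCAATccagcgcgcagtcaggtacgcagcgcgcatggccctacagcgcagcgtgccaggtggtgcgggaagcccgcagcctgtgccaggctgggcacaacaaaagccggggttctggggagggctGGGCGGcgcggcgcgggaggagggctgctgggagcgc
Timp1: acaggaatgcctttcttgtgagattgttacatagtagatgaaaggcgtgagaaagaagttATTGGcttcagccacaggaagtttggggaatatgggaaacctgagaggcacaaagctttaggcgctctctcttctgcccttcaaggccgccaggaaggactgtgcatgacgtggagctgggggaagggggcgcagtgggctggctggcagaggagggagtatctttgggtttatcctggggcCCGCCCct
Itga8: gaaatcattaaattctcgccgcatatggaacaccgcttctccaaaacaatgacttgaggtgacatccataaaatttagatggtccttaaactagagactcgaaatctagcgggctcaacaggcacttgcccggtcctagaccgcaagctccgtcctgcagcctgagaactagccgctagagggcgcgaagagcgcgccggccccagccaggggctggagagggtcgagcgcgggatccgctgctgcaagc
Itga11: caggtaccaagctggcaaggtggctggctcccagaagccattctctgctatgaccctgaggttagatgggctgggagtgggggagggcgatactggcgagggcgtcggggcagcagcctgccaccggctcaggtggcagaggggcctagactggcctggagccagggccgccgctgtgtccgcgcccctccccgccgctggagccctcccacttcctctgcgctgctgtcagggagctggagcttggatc
Timp2, which rose, and Timp1, which fell, each held 1 GC box and 1 CCAAT box. A GC box stood in 32.7% and a CCAAT box in 33.8% of all 32851 windows of this length. The Itga8 and Itga11 windows had no match to either, and no match to an AP-1 site (TGANTCA, 6.75% of windows) or a p53 half-site (7.13% of windows) was found in the 4 windows, which says only that those letters are not in them.

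Of the 105 genes, 86 reached the filter of 1 CPM in 2 libraries and were tested with limma on log2(CPM + 1), with Benjamini-Hochberg adjustment over all 16654 genes tested. With the p53 activator 12 of the 86 rose (14.0%) and 13 fell (15.1%), against 16.9% of all tested genes that rose and 16.3% that fell. All 86 are nuclear protein-coding genes, and of the 12762 such genes tested 21.2% rose and 7.19% fell. Against that class the members rose less often and fell more often. The median log2 fold change of the 86 was 0.01, against 0.03 for all genes tested and 0.09 for the nuclear protein-coding genes. The libraries of the groups did not overlap in 24 of the 86 in the higher direction and in 30 in the lower, where the shares of all genes were 36.6% and 30.9%. Of the 12762 nuclear protein-coding genes, 5766 did not overlap in the higher direction and 2526 in the lower. In these bulk cultures fewer cells of a type and less RNA per cell cannot be told apart.

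The genes that rose and those that fell stood at different levels. The 12 that rose had a median of 56.7 CPM over the 4 libraries (8.35 to 383 CPM), and the 13 that fell had a median of 4.33 CPM (0.723 to 22.0 CPM). Over all genes tested the medians were 73.0 CPM for those that rose and 7.55 CPM for those that fell. Among the members, 5 passed the filter through the DMSO libraries alone (Timp1, Mmp11, Col4a4, Col7a1 and Itgb7), and 3 of them were called lower. No member passed through the p53 activator libraries alone. Of all 16654 genes tested, 466 passed through the DMSO libraries alone, 247 of them called lower, and 35 through the p53 activator libraries alone. For the 12762 nuclear protein-coding genes these counts were 116, 41 and 24.

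The balance of rises and falls depended on the scale. When each library was scaled to its nuclear protein-coding reads (below, protein-coding scaling), the median log2 fold change of the genes shared by both fits moved by -0.15. That fit tested only nuclear protein-coding genes, 13039 of them, of which 4.37% rose and 13.1% fell. Of the 86 members 1, Timp2, rose while 19 fell. All 13 genes that fell in CPM fell there too, and the 12 that rose in CPM kept a positive log2 fold change. edgeR's quasi-likelihood test on the recovered reads, with TMM scaling, called 4 members higher (Timp2, Itgav, Mmp15 and Mmp17) and 14 lower, where 10.7% of all genes were higher and 17.4% lower. Without the variance trend limma called 0 members higher, 7 with an unadjusted p under 0.05, and DESeq2 called 2. In CPM the rises were between 1.17-fold and 1.35-fold.

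**Figure D1:**
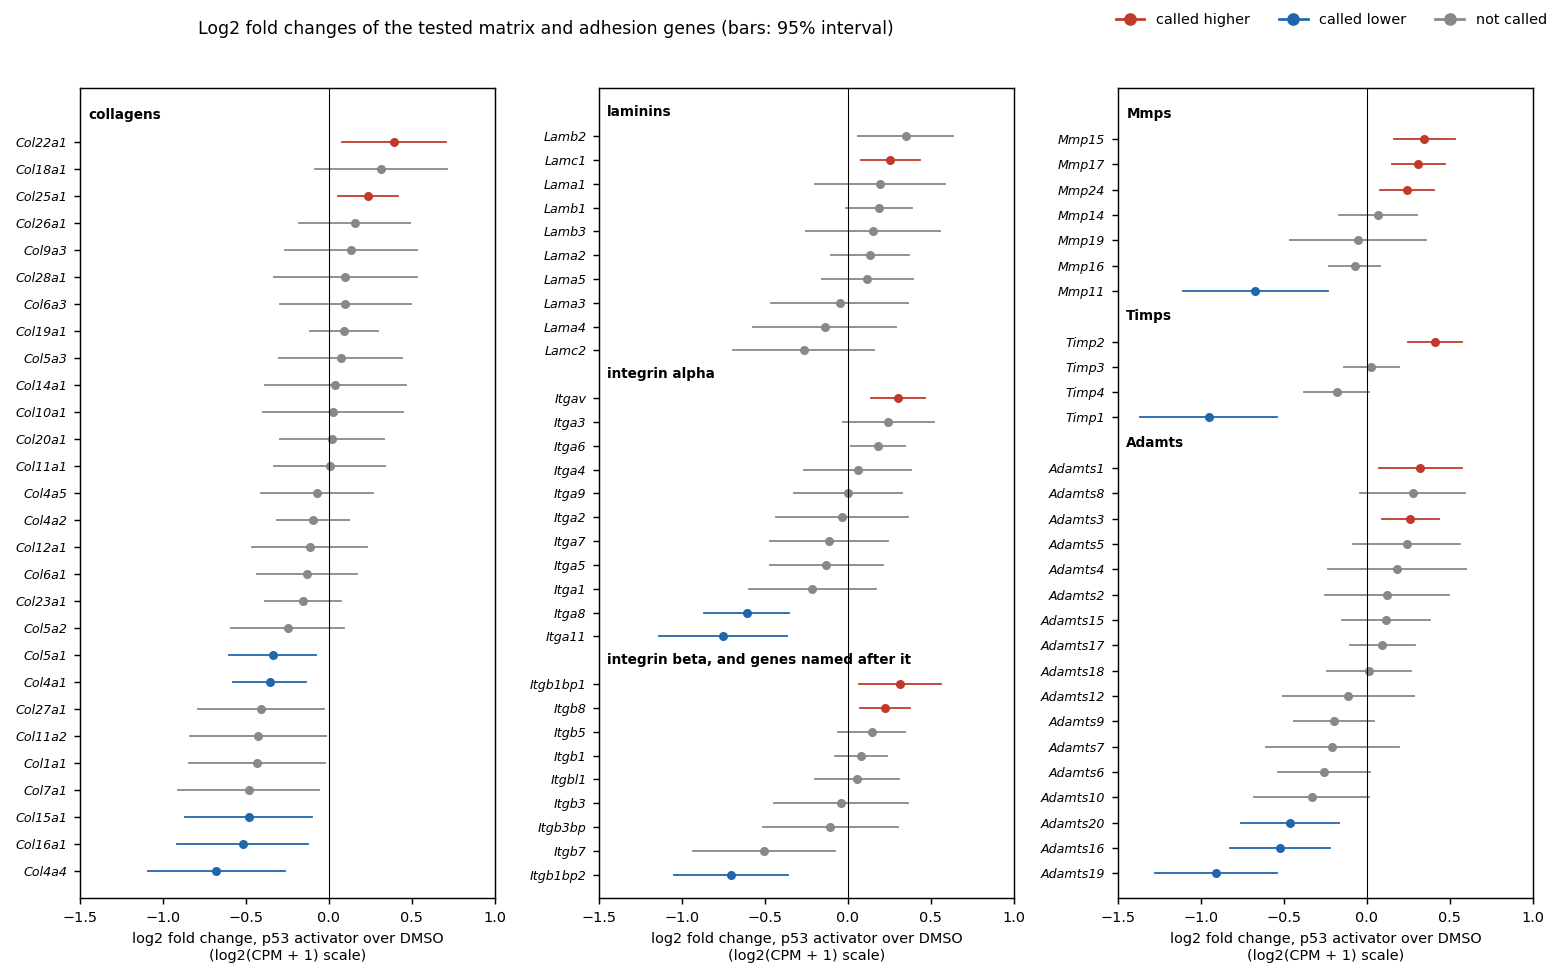
Log2 fold changes of the 86 tested genes, p53 activator over DMSO, on the log2(CPM + 1) scale (x axis), in family order, with limma's 95% intervals as bars and the called genes in colour. The 12 rises and 13 falls are spread over the families, and the falls of Timp1 (-0.95) and Adamts19 (-0.91) lie farthest from 0.

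The Timps, which block Mmps and in part Adamts proteases, moved apart from each other. Timp2, which also helps to activate a gelatinase on the cell surface, had 417 and 457 CPM with the p53 activator, against 304 and 354 CPM with DMSO. Both p53 activator libraries lay above both DMSO libraries, a 1.33-fold rise (log2 fold change 0.41, 95% interval 0.25 to 0.57, limma adjusted p = 3.5e-05). Timp1, an inducible inhibitor known from injury and inflammation, had 0.787 and 0.790 CPM with the p53 activator, against 2.26 and 2.67 CPM with DMSO. Those values rest on 15 and 14 reads with the p53 activator and 33 and 40 reads with DMSO, and the groups did not overlap. Timp1 stood at 0.32 times its DMSO level (log2 fold change -0.95, 95% interval -1.37 to -0.54, adjusted p = 0.000175), and the log2(CPM + 1) scale understates such a low gene. Because Timp1 reached the filter through the DMSO libraries alone, the direction of its call carries little weight.

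Timp3, which binds to the matrix and also blocks Adamts proteases, had 63.2 and 65.6 CPM with the p53 activator and 65.4 and 61.0 CPM with DMSO. Its libraries overlapped, and the 95% interval of its log2 fold change was -0.14 to 0.19 (0.03, adjusted p = 0.835). Timp4, known from brain and heart, had 31.2 and 29.8 CPM with the p53 activator and 35.9 and 33.6 CPM with DMSO. Its groups did not overlap, but the difference did not pass the test (log2 fold change -0.18, adjusted p = 0.145), and it did pass with protein-coding scaling (-0.33, adjusted p = 0.0108). The order of the Timps was the same in both groups in CPM per kilobase of exons. Timp2 led with 107 and 117 with the p53 activator and 78.0 and 91.0 with DMSO, ahead of Timp3, Timp4 and Timp1, and no library of one reached the next. Timp1 had 0.886 and 0.890 CPM per kilobase with the p53 activator against 2.55 and 3.01 with DMSO.

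Timp1, Timp3 and Timp4 each lie inside a synapsin gene on the opposite strand, Timp1 inside Syn1, Timp3 inside Syn3 and Timp4 inside Syn2. The synapsins coat synaptic vesicles and are abundant in neurons, and no source used here says whether the counting used strand, so reads of a Timp and its host may be mixed where exons overlap. Timp1 shares 0 exon bases with its host in the GENCODE vM21 annotation, Timp4 shares 1.53% of its exons with Syn2, and Timp3 shares 21.3% with Syn3. Syn1 rose, with 180 and 204 CPM with the p53 activator against 147 and 162 CPM with DMSO (log2 fold change 0.31, adjusted p = 0.00129). Timp1 thus fell while its host rose, and the Timp1 to Syn1 ratio was 0.00437 and 0.00388 with the p53 activator and 0.0153 and 0.0164 with DMSO. The rise of Syn1 did not pass without DMSO replicate 1 (adjusted p = 0.0823) or without p53 activator replicate 2 (0.0944), nor with protein-coding scaling (0.115). Syn2 rose, with 452 and 438 CPM with the p53 activator against 337 and 348 CPM with DMSO (0.38, adjusted p = 0.000107), and Syn3 fell (-0.40, adjusted p = 2.38e-05), with 119 and 121 CPM with the p53 activator against 156 and 162 CPM with DMSO. The ratio of Timp4 to Syn2 was 0.0689 and 0.0680 with the p53 activator and 0.106 and 0.0966 with DMSO, and that of Timp3 to Syn3 was 0.529 and 0.541 against 0.420 and 0.376. For each of the 3 ratios a two-sided exact permutation test gave p = 0.333, the smallest that 2 libraries against 2 allow.

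**Figure D2:**
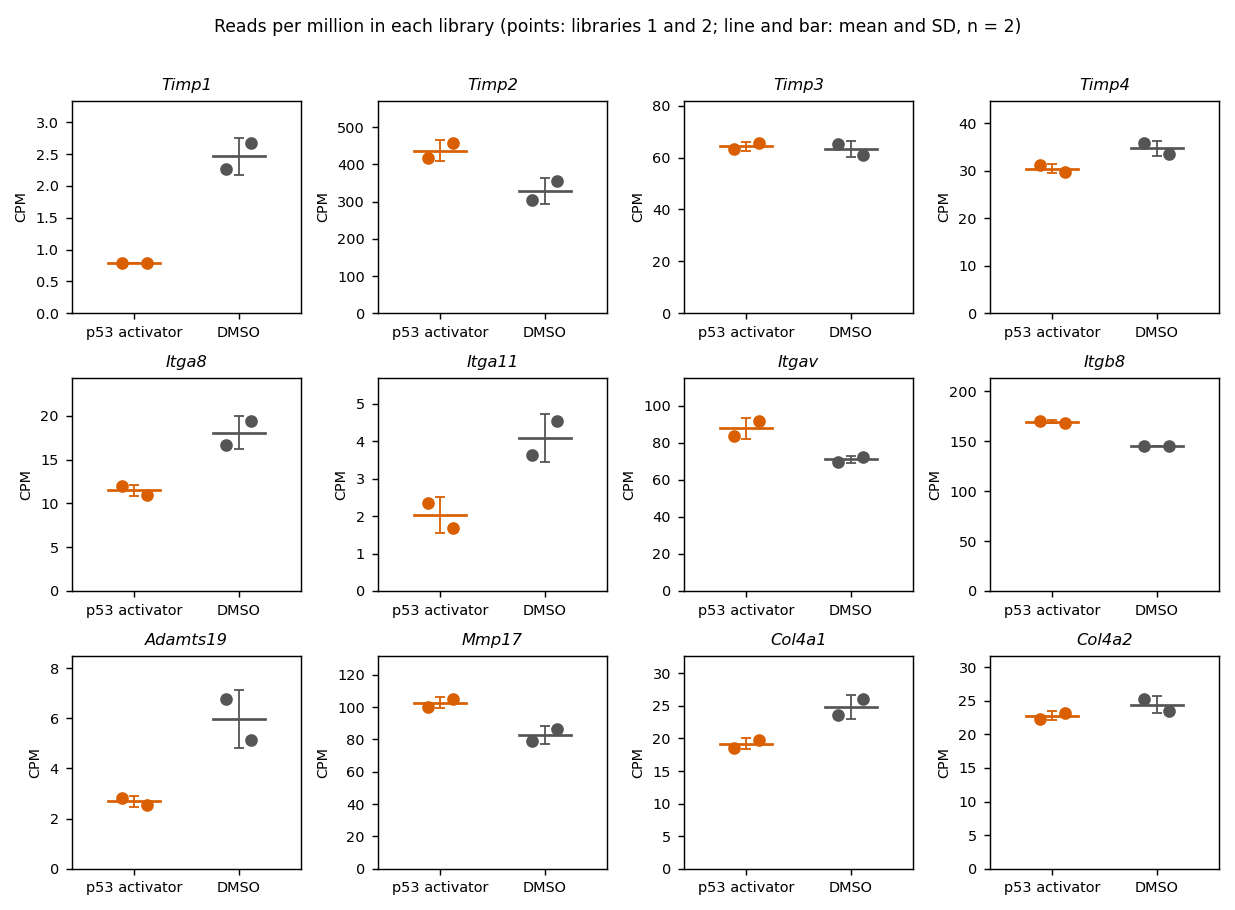
CPM (y axis) of 12 genes in each library, with p53 activator libraries left of DMSO libraries, each point a library, the line the mean and the bar the SD (n = 2 per group). Timp2 is higher and Timp1 lower in both p53 activator libraries, Timp3 overlaps, and Col4a1 separates the groups while Col4a2 differs by less.

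Of the 11 integrin alpha chains tested 1 rose and 2 fell, and of the 5 beta chains 1 rose, where 16.9% of all genes rose and 16.3% fell. Itgav, the alpha chain of receptors for RGD-bearing ligands such as vitronectin, had 84.0 and 91.9 CPM with the p53 activator, against 69.9 and 72.5 CPM with DMSO (1.24-fold, log2 fold change 0.30 ± 0.08 (SE), limma adjusted p = 0.00254). Its beta partner Itgb8, which pairs with Itgav alone and frees latent TGF-β in the brain, had 171 and 168 CPM with the p53 activator, against 145 and 145 CPM with DMSO. That was a 1.17-fold rise, again with no overlap (0.22 ± 0.08, adjusted p = 0.0177). So both chains of this receptor rose, by small amounts. Neither passed with protein-coding scaling (Itgav 0.15, adjusted p = 0.173, and Itgb8 0.07, adjusted p = 0.517). Itgav also failed without DMSO replicate 1 (0.0622) and without p53 activator replicate 2 (0.0728), and Itgb8 failed without any one of the 4 libraries (0.0692 to 0.107).

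Itga8, an alpha chain that pairs with Itgb1 and binds nephronectin, fell, with 11.96 and 11.0 CPM with the p53 activator against 16.7 and 19.4 CPM with DMSO. The groups were well apart, at 0.635 times the DMSO level (log2 fold change -0.61 ± 0.13, adjusted p = 0.00011). Itga11, a collagen receptor chain known mainly from fibroblasts, had 2.36 and 1.69 CPM with the p53 activator, against 3.63 and 4.54 CPM with DMSO, or 45 and 30 reads against 53 and 68. It fell to 0.496 times its DMSO level (-0.75 ± 0.20, adjusted p = 0.00154). Npnt, the gene of nephronectin and so of the ligand of Itga8, rose, with 16.1 and 17.6 CPM with the p53 activator against 11.4 and 13.0 CPM with DMSO (0.43, adjusted p = 0.00597). The Npnt rise did not pass with protein-coding scaling (adjusted p = 0.104), without DMSO replicate 1 (0.122) or without p53 activator replicate 2 (0.0786).

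Itgb1, the beta chain that most alpha chains pair with, had 133 and 121 CPM with the p53 activator and 125 and 115 CPM with DMSO. Its groups overlapped, and the 95% interval of its log2 fold change was -0.08 to 0.23. Itga6, an alpha chain of laminin receptors, had 85.0 and 84.4 CPM with the p53 activator and 77.8 and 71.5 CPM with DMSO, which did not pass the test (0.18, adjusted p = 0.0749). Per kilobase of exons Itgb1 stood highest of the integrins, with 32.5 and 29.6 CPM with the p53 activator and 30.6 and 28.3 CPM with DMSO. Itgb8 followed with 15.4 and 15.2 CPM per kilobase against 13.1 and 13.1, and then Itga6 with 9.42 and 9.35 against 8.62 and 7.92. Itga3, another laminin receptor chain, had 12.01 and 16.4 CPM with the p53 activator and 11.2 and 12.2 CPM with DMSO (0.24, adjusted p = 0.165). The log2 fold change of Itga3 was 0.45 without p53 activator replicate 1, the p53 activator library nearer to DMSO, and 0.04 without p53 activator replicate 2. With protein-coding scaling it was 0.11 (adjusted p = 0.668).

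Of the genes named after an integrin, Itgb1bp2, which encodes the muscle chaperone melusin, fell, with 4.56 and 3.78 CPM with the p53 activator against 8.09 and 6.75 CPM with DMSO. Its log2 fold change was -0.70 ± 0.17 (adjusted p = 0.000845). Itgb1bp1, whose product binds the tail of the beta chain, had 22.7 and 16.6 CPM with the p53 activator against 15.6 and 15.2 CPM with DMSO (0.32, adjusted p = 0.0403). The rise rested on p53 activator replicate 1, since it was 0.10 (adjusted p = 0.67) without that library and 0.53 without p53 activator replicate 2. It was also lost without DMSO replicate 1 (0.122) and DMSO replicate 2 (0.13). Exons of Itgb1bp1 overlap those of Asap2 and Cpsf3 on the other strand over 11.4% and 5.54% of their length.

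**Figure D3:**
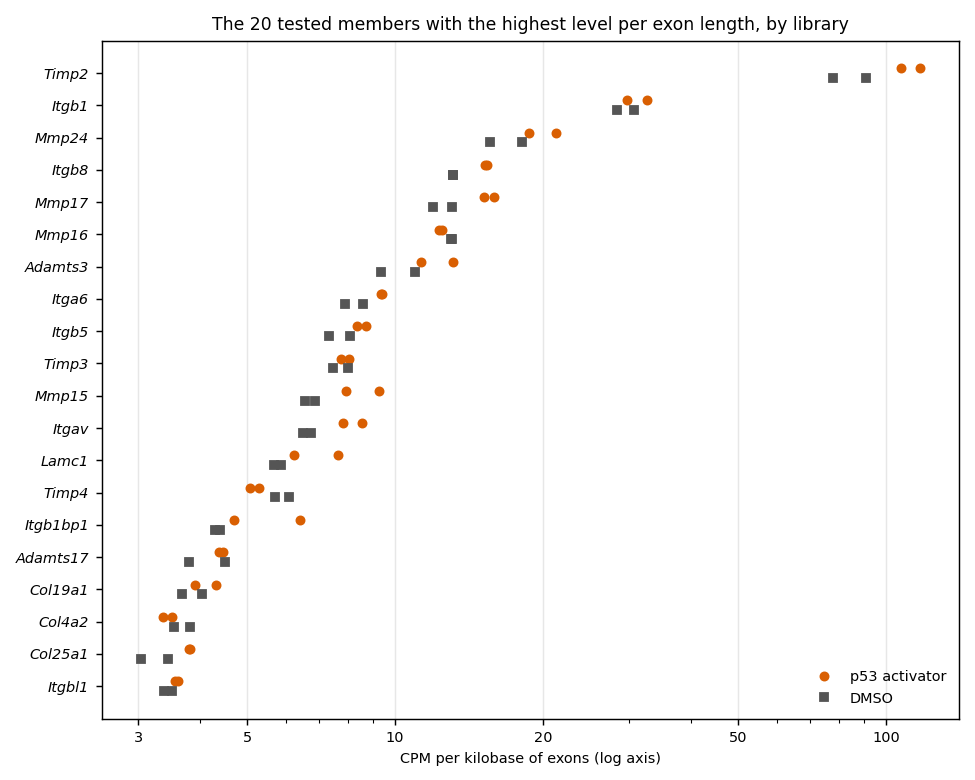
CPM per kilobase of exons (x axis, log scale) of the 20 tested genes with the highest level per length, each point a library. Timp2 stands highest in both groups, followed by Itgb1 and Mmp24, and most of these genes lie somewhat higher in CPM with the p53 activator, whereas Mmp16, Timp4 and Col4a2 lie lower.

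Of the laminin chains, 1 of 10 rose, where 16.9% of all genes did, and the other 9 did not pass. Lamc1, the gamma chain shared by most laminins, had 51.6 and 63.3 CPM with the p53 activator, against 48.5 and 47.0 CPM with DMSO. That was 57.4 ± 8.32 against 47.7 ± 1.07 CPM (SD, n = 2 each), a 1.2-fold rise (0.26 ± 0.09, adjusted p = 0.0201). The size of the rise hung on p53 activator replicate 2, since it was 0.11 (adjusted p = 0.494) without that library and 0.40 without p53 activator replicate 1. It was lost as well without DMSO replicate 1 (0.0823) and DMSO replicate 2 (0.121) and with protein-coding scaling (0.11, adjusted p = 0.433). Lamb1, the common beta chain, had 32.4 and 34.0 CPM with the p53 activator and 28.0 and 30.1 CPM with DMSO (0.19, adjusted p = 0.14). Lamb2, the beta chain known from synaptic and kidney basement membranes, had 11.9 and 12.6 CPM with the p53 activator and 8.43 and 10.5 CPM with DMSO. The groups of Lamb2 did not overlap, and its difference missed the threshold (0.35, adjusted p = 0.052). The log2 fold change of Lamb2 was 0.49 without DMSO replicate 2, the DMSO library nearer to the p53 activator. It was 0.20 without DMSO replicate 1 and 0.21 with protein-coding scaling. In all, 7 of the 10 laminins had a positive log2 fold change, with a median of 0.14. Of the 12762 nuclear protein-coding genes tested, 8255 had a positive log2 fold change in CPM, with a median of 0.09. With protein-coding scaling 5 of the 10 laminins had a positive log2 fold change, with a median of 0.02. In 6 of 10 laminins the p53 activator libraries lay above both DMSO libraries, where 36.6% of all genes did so. Among the 12762 nuclear protein-coding genes 5766 did so.

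Of the 28 collagens tested, 2 rose (7.14%) and 5 fell (17.9%), against 16.9% and 16.3% of all genes. Of the nuclear protein-coding genes tested 21.2% rose and 7.19% fell. The collagens had a median log2 fold change of -0.08, which was 0.06 with quantile normalization and -0.23 with protein-coding scaling. Both that rose are collagens that do not build fibrils. Col25a1, a membrane-spanning collagen that neurons make and that is known from amyloid plaques, had 49.2 and 49.6 CPM with the p53 activator, against 39.3 and 44.6 CPM with DMSO (0.23 ± 0.09, adjusted p = 0.0366). Col22a1, a collagen of tissue junctions that associates with fibrils, had 10.9 and 8.30 CPM with the p53 activator, against 6.03 and 8.15 CPM with DMSO (0.39 ± 0.16, adjusted p = 0.0477). In Col22a1 the nearest libraries of the groups almost met. Col22a1 lost its call without DMSO replicate 1 (0.20, adjusted p = 0.496) and without p53 activator replicate 1 (0.21, adjusted p = 0.463). That of Col25a1 was lost without DMSO replicate 1 (0.15, adjusted p = 0.433), without p53 activator replicate 1 (0.0927) and without p53 activator replicate 2 (0.117). Neither passed with protein-coding scaling (Col22a1 0.26, adjusted p = 0.27, and Col25a1 0.09, adjusted p = 0.553).

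The 5 collagens that fell were 3 of basement membranes and 2 tied to fibrils. Col4a1, which with Col4a2 forms the main type IV collagen of basement membranes, had 18.6 and 19.8 CPM with the p53 activator, against 23.6 and 26.1 CPM with DMSO (-0.36 ± 0.11, adjusted p = 0.00874). Col4a2, its head-to-head neighbour on the chromosome, had 22.3 and 23.2 CPM with the p53 activator and 25.3 and 23.5 CPM with DMSO. The difference in Col4a2 did not pass (-0.10, 95% interval -0.31 to 0.12, adjusted p = 0.523), although its groups did not overlap. The Col4a1 to Col4a2 ratio was 0.833 and 0.852 with the p53 activator and 0.932 and 1.11 with DMSO. The exact permutation p of the ratio was 0.333, again the smallest possible. Col4a4, a chain of the second type IV network known from kidney, had 0.944 and 0.960 CPM with the p53 activator, against 1.99 and 2.27 CPM with DMSO (-0.68 ± 0.21, adjusted p = 0.00758). These are 18 and 17 reads with the p53 activator and 29 and 34 reads with DMSO. Col4a4 reached the filter through the DMSO libraries alone, so the direction of its call carries little weight. Its partner Col4a3 stayed below the filter, with 0.105 and 0.339 CPM against 0.549 and 0.334 CPM.

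Col15a1, a basement membrane zone collagen whose end releases an antiangiogenic fragment, had 2.31 and 2.20 CPM with the p53 activator, against 3.63 and 3.47 CPM with DMSO (-0.48, adjusted p = 0.0435). Col5a1, which starts the assembly of collagen fibrils, had 11.8 and 11.9 CPM with the p53 activator, against 15.7 and 14.8 CPM with DMSO (-0.34, adjusted p = 0.0374). Col16a1, a fibril-associated collagen, had 1.68 and 1.86 CPM with the p53 activator, against 3.29 and 2.67 CPM with DMSO (-0.52, adjusted p = 0.0352). In each of the 5 the groups did not overlap, though Col4a4 had reached the filter through the DMSO libraries alone. The calls of Col5a1, Col15a1 and Col16a1 were lost when any one of the 4 libraries was left out, with adjusted p from 0.0754 to 0.224, from 0.0985 to 0.199 and from 0.0517 to 0.292. Col4a1 was lost without DMSO replicate 2 (0.134) and without p53 activator replicate 1 (0.0637), and Col4a4 without DMSO replicate 2 (0.0873). All 5 were also called lower with protein-coding scaling.

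By class, 1 of the 7 fibril-forming collagens tested fell, with a median log2 fold change of -0.34 and 5 of 7 negative. The median was negative under each scaling tried, from -0.49 to -0.18. Of the 6 basement membrane collagens tested 3 fell, with a median of -0.23, and from -0.37 to -0.18 under the other scalings. Of all genes tested 16.3% fell, and Col4a4 among the 3 had reached the filter through the DMSO libraries alone. Col18a1, the basement membrane collagen that holds endostatin, went the other way without passing the test, with 2.47 and 2.48 CPM with the p53 activator against 1.85 and 1.74 CPM with DMSO (0.31, adjusted p = 0.229). Col1a1, the main chain of type I collagen, was among those that missed the threshold (-0.43, adjusted p = 0.0965), as were Col7a1 (-0.48, adjusted p = 0.0713), Col27a1 (-0.41, adjusted p = 0.0871) and Col11a2 (-0.43, adjusted p = 0.098). The groups of 13 of the 28 collagens did not overlap in the lower direction and those of 4 in the higher, where 30.9% and 36.6% of all genes did so. A further 11 collagens did not reach the filter, with no single value above 1.68 CPM. Col19a1, which interneurons make, had 29.8 and 27.0 CPM with the p53 activator and 25.3 and 27.9 CPM with DMSO, and the groups overlapped (0.09, adjusted p = 0.531).

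The markers in the table of the cells that make most matrix collagen were scarce, and their sums were of like size in both groups. Such sums do not show whether these cells changed in number. Many listed markers were not in the table, and a single gene made up a large part of each sum. Mean CPM with the p53 activator and with DMSO was 11.5 and 11.8 for Dcn (fibroblasts and meningeal cells). For Notch3 (mural cells) it was 20.6 and 20.1, and for Egfl7 (endothelial cells) 15.2 and 12.3. Markers of fibroblasts and meningeal cells, of which 8 of 12 were in the table, summed to 23.9 and 26.2 CPM with the p53 activator and 24.3 and 24.8 CPM with DMSO. Mural cell markers (5 of 11 in the table) summed to 24.3 and 29.3 CPM against 28.0 and 25.9 CPM. Endothelial markers (4 of 13) summed to 18.0 and 21.3 CPM against 16.3 and 18.2 CPM, and of these 4 genes 2 had a positive and 2 a negative log2 fold change, from -0.52 (Tek) to 0.57 (Kdr). Tek reached the filter through the DMSO libraries alone and Kdr, which was called higher, through the p53 activator libraries alone, so that neither direction carries weight. Microglial markers (5 of 15) summed to 16.9 and 14.8 CPM against 18.9 and 16.6 CPM. Oligodendrocyte lineage markers (8 of 10) summed to 202 and 201 CPM against 183 and 179 CPM. No listed marker in the table was at 0 in any library. The astrocyte sums given above were higher in both p53 activator libraries. Of the 10 astrocyte markers tested, however, 5 had a positive and 5 a negative log2 fold change, with a median of 0.03. Slc1a2, the most abundant of them and the only one called, had 1572 and 1569 CPM with the p53 activator against 1311 and 1310 CPM with DMSO. The part of astrocytes in the changes of single genes was not tested.

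The Mmps that rose are anchored in the cell membrane. Of the 5 membrane-anchored Mmps tested, 3 rose, where 16.9% of all genes did, with a median log2 fold change of 0.24 over the 5. With protein-coding scaling, where 4.37% of the nuclear protein-coding genes tested rose, the median of the 5 was 0.09. Mmp15 had 42.9 and 50.01 CPM with the p53 activator, against 35.3 and 37.1 CPM with DMSO (1.28-fold, 0.35 ± 0.09, adjusted p = 0.00234). Mmp17, which is held by a lipid anchor, had 100.3 and 105 CPM with the p53 activator, against 79.0 and 86.5 CPM with DMSO (1.24-fold, 0.31 ± 0.08, adjusted p = 0.00149). Mmp24, a neuronal protease that cuts N-cadherin, had 87.5 and 99.7 CPM with the p53 activator, against 73.2 and 85.0 CPM with DMSO (1.18-fold, 0.24 ± 0.08, adjusted p = 0.0177). The p53 activator libraries lay above the DMSO libraries in all 3, narrowly in Mmp24. None of the 3 passed with protein-coding scaling (log2 fold changes 0.20, 0.16 and 0.09 for Mmp15, Mmp17 and Mmp24). Without DMSO replicate 1 the adjusted p was 0.0603 for Mmp15, 0.0927 for Mmp17 and 0.415 for Mmp24, and without p53 activator replicate 2 it was 0.117 for Mmp15 and 0.292 for Mmp24. The log2 fold change of Mmp24 was then 0.13 and 0.15. Exons of Mmp24 overlap a gene on the other strand, BC029722, over 13.6% of their length.

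Mmp14, the best-known membrane-anchored collagenase, had 17.9 and 19.6 CPM with the p53 activator and 17.6 and 18.1 CPM with DMSO (0.07, adjusted p = 0.693). Mmp16 had the highest CPM of the Mmps, with 106 and 108 CPM with the p53 activator and 113 and 112 CPM with DMSO. Per kilobase of exons Mmp24 and Mmp17 stood above it, with means over the libraries of 18.4 and 14.0 CPM against 12.7 CPM. The groups of Mmp16 are compared next. The groups of Mmp16 did not overlap, its difference did not pass (-0.07, adjusted p = 0.499), and it was called lower with protein-coding scaling (-0.22, adjusted p = 0.0223). Mmp11, a secreted Mmp that is activated before it leaves the cell, fell, with 0.262 and 0.395 CPM with the p53 activator against 1.10 and 1.14 CPM with DMSO. These are 5 and 7 reads with the p53 activator and 16 and 17 reads with DMSO (-0.67 ± 0.22, adjusted p = 0.0124). Mmp11 too reached the filter through the DMSO libraries alone, so the direction of its call carries little weight. The Mmp11 call was lost without DMSO replicate 1 (0.107), DMSO replicate 2 (0.0934) or p53 activator replicate 1 (0.0706). Of the 10 Mmps in the table, 3 did not reach the filter, among them the gelatinase Mmp9 with 0.944 and 0.790 CPM with the p53 activator and 0.754 and 0.468 CPM with DMSO.

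Of the 17 Adamts proteases tested, 2 rose (11.8%) and 3 fell (17.6%), against 16.9% and 16.3% of all genes. Of the nuclear protein-coding genes tested 21.2% rose and 7.19% fell. Adamts3, which trims procollagen and cuts reelin in the mouse brain, had 61.4 and 71.3 CPM with the p53 activator, against 50.9 and 59.5 CPM with DMSO (1.2-fold, 0.26 ± 0.09, adjusted p = 0.0142). Reln itself, the gene of the secreted protein reelin that positions cortical neurons, rose too, with 246 and 289 CPM with the p53 activator against 168 and 197 CPM with DMSO (0.55 ± 0.08, adjusted p = 2.52e-08). Adamts1, which cuts the proteoglycans aggrecan and versican, had 18.4 and 16.5 CPM with the p53 activator, against 12.5 and 15.1 CPM with DMSO (1.27-fold, 0.32 ± 0.13, adjusted p = 0.0403). Its chromosome neighbour Adamts5, the main aggrecanase of cartilage, had 7.24 and 7.73 CPM with the p53 activator and 6.03 and 6.35 CPM with DMSO (0.24 ± 0.16, adjusted p = 0.267). The groups of Adamts5 did not overlap either. Both calls depended on single libraries. Adamts3 was 0.15 (adjusted p = 0.378) without DMSO replicate 1 and 0.16 (0.289) without p53 activator replicate 2, and Adamts1 was 0.19 (0.421) without DMSO replicate 1 and 0.25 (0.251) without p53 activator replicate 1. With protein-coding scaling neither passed (Adamts3 0.11, adjusted p = 0.378, and Adamts1 0.18, adjusted p = 0.348), whereas Reln did (0.40).

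Adamts19, whose substrates are little known, had 2.83 and 2.54 CPM with the p53 activator, against 6.79 and 5.14 CPM with DMSO, or 54 and 45 reads against 99 and 77. It fell to 0.45 times its DMSO level (-0.91 ± 0.18, adjusted p = 5.55e-05), and the groups were far apart. Adamts16 had 8.39 and 7.28 CPM with the p53 activator, against 9.94 and 13.7 CPM with DMSO (-0.52 ± 0.15, adjusted p = 0.00447). The DMSO libraries of Adamts16 differed from each other by more than the nearest libraries of the groups did. Adamts20, a versican-cutting protease known from the coat pattern of mice, had 7.97 and 7.56 CPM with the p53 activator, against 11.7 and 10.5 CPM with DMSO (-0.46 ± 0.15, adjusted p = 0.0111). Adamts16 was -0.31 (adjusted p = 0.224) without DMSO replicate 2 and -0.43 (0.0615) without p53 activator replicate 2. Adamts20 was lost without DMSO replicate 1 (0.142) and p53 activator replicate 2 (0.0691). Adamts17 had 34.6 and 34.0 CPM with the p53 activator and 29.5 and 34.9 CPM with DMSO, and the groups overlapped.

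Of the 25 called members, 6 were called without each of the 4 libraries in turn, Timp2 among those that rose and Timp1, Itga8, Itga11, Itgb1bp2 and Adamts19 among those that fell. The other called members lost the call when at least 1 library was left out. Itga11 and Itgb1bp2 kept theirs only narrowly, with the weakest value of each just under the threshold. Timp1 had reached the filter through the DMSO libraries alone, a limit that leaving out a library does not lift.

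**Figure D4:**
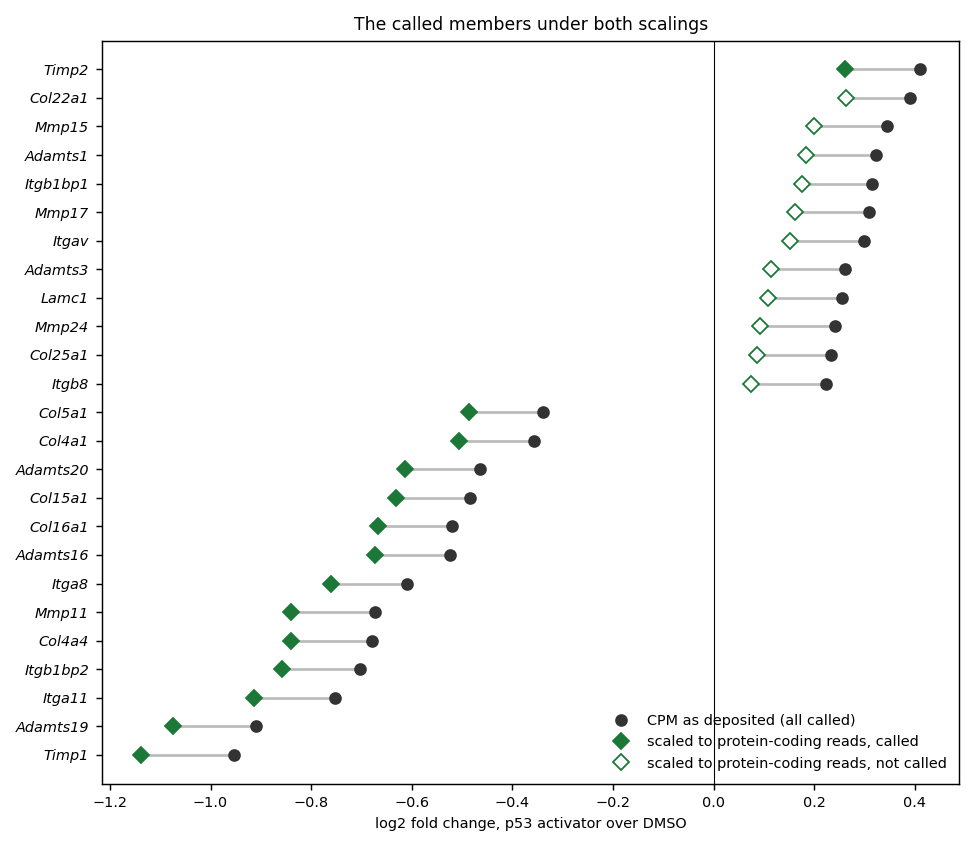
Log2 fold changes of the 25 called genes (x axis, p53 activator over DMSO) in CPM as deposited and with protein-coding scaling. Every gene moves to the left by a like amount, the 13 that fell are also called there, and of the 12 that rose Timp2 is called (0.26) and the other 11 are not.

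The partners of these genes in the matrix were read from 5 lists, which together had 123 genes tested. Of these 19 rose (15.4%) and 9 fell (7.32%), against 16.9% and 16.3% of all genes tested, with a median log2 fold change of 0.06. Of the nuclear protein-coding genes tested 21.2% rose and 7.19% fell, so the share of falls in the lists lay near that of this class. Other proteases and inhibitors had 7 rises and 2 falls among 29 genes, collagen folding and crosslinking 4 and 2 among 26, and integrin adhesion and signalling 3 and 2 among 29. Fibril and matrix glycoproteins had 3 rises and 2 falls among 23 genes, and basement membrane partners 2 and 1 among 16. With protein-coding scaling the 5 lists had 6 rises and 15 falls, where 4.37% of the nuclear protein-coding genes tested rose and 13.1% fell.

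Among the partners of integrins, Ptk2b, a calcium-activated kinase of the focal adhesion kinase family, rose, with 68.3 and 74.2 CPM with the p53 activator against 46.3 and 50.2 CPM with DMSO (0.55, adjusted p = 1.5e-07). Flna, a filamin that crosslinks actin and binds integrin tails, fell. It had 158 and 152 CPM with the p53 activator against 212 and 208 CPM with DMSO (-0.44, adjusted p = 3.41e-06). Dag1, the laminin receptor dystroglycan, rose, with 156 and 176 CPM with the p53 activator against 119 and 134 CPM with DMSO (0.39, adjusted p = 5.7e-05). These 3 genes were called with protein-coding scaling as well. Adamtsl4, a matrix protein related to the Adamts proteases but without their catalytic part, fell, with 5.30 and 3.67 CPM with the p53 activator against 10.01 and 7.75 CPM with DMSO (-0.86, adjusted p = 4.02e-05). Pxdn, the peroxidase that crosslinks type IV collagen, fell with Col4a1, at 22.3 and 21.5 CPM against 28.4 and 27.3 CPM (-0.33, adjusted p = 0.011). The Pxdn call was lost without DMSO replicate 1 (0.124) and without p53 activator replicate 2 (0.0655).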

How the data were processed

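Total RNA of 4 samples (2 with the p53 activator Nutlin-3 and 2 with DMSO) was extracted with TRIzol and freed of ribosomal RNA, per the labels' protocols. The submitters' processing notes name TopHat2, Cufflinks 2.0.0 and mm9 without their roles. The sources used here give no counting program, strand setting or annotation. The authors deposited 1 table of CPM, a unit read from the values, for 18854 genes. Whole reads could be recovered from the steps of the CPM columns for 100% of values, within 0.01 reads. Reads outside the listed genes were 0.149% and 0.133% of the total with the p53 activator and 0.208% and 0.191% with DMSO.

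The filter asked for 1 CPM or more in 2 or more libraries (16654 of 18854 genes), and limma 3.58.1 in R 4.3.3 was fitted to log2(CPM + 1) by group, with a variance trend, Benjamini-Hochberg adjustment, two-sided, and calls at an adjusted p under 0.05. Fold changes are on the log2(CPM + 1) scale and understate low genes. There were 2 residual and 98 prior degrees of freedom, so the moderated spread is largely common to all genes, and the median SE was 0.13. Intervals cover 95%. The replicates of a group differed beyond sampling noise (chi-square per degree of freedom 5.34 with the p53 activator and 4.64 with DMSO). Alternatives were edgeR 4.0.16 and DESeq2 1.42.0 on the recovered reads, other scalings, filters and pseudocounts, a replicate block and leaving out each library. Of these fits, the reported limma fit was tested on simulated data.

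The members, the gene lists and the tests were chosen with earlier results of these data known. Genes named are, in each family, up to 5 called genes per direction with the smallest p, the 2 most abundant and every Timp, then up to 2 called genes per direction of each partner list, marker genes, the synapsins around the Timps and chromosome neighbours. Some genes that this rule takes are left out here. Others (genes just outside the threshold, Mmp9, Mmp14, Lamb2, Itga3 and Itgb7 among them) were named after their values were seen. Exon lengths and overlaps are from GENCODE vM21, in which 15860 symbols matched 1 gene. Its build is not the one the processing notes name, so only lengths, overlaps and neighbours were taken from it.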

Additional observations from a re-analysis of the deposited data

How the results depend on the processing

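The 12 members that rose had positive and the 13 that fell negative log2 fold changes under every alternative that tested them, but the number of calls moved. Members called higher numbered 12 in the reported fit, 6 with quantile normalization (9.8% of all genes), 5 without a filter on low values (10.6%), 4 with edgeR, 2 with DESeq2 (6.94%), 1 with protein-coding scaling and 0 with limma without a variance trend (1.81%), where 7 had an unadjusted p under 0.05. Members called lower numbered 13 in the reported fit, 7 with quantile normalization (11.6% of all genes) and 6 with DESeq2 (9.52%). With a minimum of 5 CPM only 7 of these 13 members were tested, and all 7 were still called lower (14.7% of all genes). Other matrix genes called higher numbered 19 in the reported fit, 10 with quantile normalization, 9 with DESeq2, 6 with protein-coding scaling and 2 without a variance trend. Those called lower numbered 9 in the reported fit, 15 with protein-coding scaling, 5 with quantile normalization and 3 with DESeq2. Leaving out 1 library gave 1 to 11 members higher and 6 to 9 lower, and 9 to 17 other matrix genes higher and 4 to 7 lower, where 6.83% to 12.7% of all genes were higher and 8.68% to 14.8% lower, and the lowest counts of rises came without DMSO replicate 1. The causes were not tested.

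Of the 25 called members, Adamts19, Itga8, Itgb1bp2, Itga11 and Timp1 were called in every alternative that tested them. At their weakest, the calls of Itga11 and Itgb1bp2 lay just under the threshold. Timp1 had reached the filter through the DMSO libraries alone. Timp2 lost its call only without a variance trend (adjusted p = 0.0667). The neuron marker Map2 had a log2 fold change of -0.11 in the reported fit (adjusted p = 0.581), 0.24 with quantile normalization (0.0442) and -0.26 with protein-coding scaling (0.0152). With the replicate number as a block, 14 members were higher and 14 lower, and 29 other matrix genes were higher and 13 lower, where 22.2% of all genes were higher and 18.8% lower. The numbers are not known to pair the cultures: over the 2 pairs the correlation of deviations between same-numbered libraries was 0.117. With 2 libraries a group, samples that stand apart could not be tested, and genes near 1 CPM rest on few reads.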
